A study of Mus musculus with 12 samples.

Results

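The genes described here are 9 genes of the Th17 program: the cytokines Il17a, Il17f, Il22 and Il21, the receptors Ccr6, Il1r1 and Il23r, and the membrane proteins Tmem176a and Tmem176b. They were found by gene name on the expression array. All 9 had a probe and together they had 12 of the 25697 probes. Th17 cells are CD4 helper T cells that guard mucosal surfaces. Signals through STAT3 help to switch on IL-17A, IL-17F and IL-22, which act on epithelium and call in neutrophils. IL-1 and IL-23 received through Il1r1 and Il23r maintain the cells, and the chemokine receptor Ccr6 guides them to tissue that makes CCL20. The gut lining is a well known home of such cells.

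The study sorted CD4 intraepithelial T lymphocytes from the small intestine of B6-ThPOK-GFP reporter mice, aged 10 to 12 weeks per the labels, in which GFP reports ThPOK (Zbtb7b), the transcription factor that keeps CD4 T cells in the helper lineage. The 3 sorted subsets were THPOK-CD8a+ cells, which lack ThPOK and carry the CD8α chain, THPOK-CD8a- cells, which lack both, and THPOK+CD8a- cells, which keep ThPOK and against which the other 2 are set. Each subset came from both of 2 hosts with 2 replicates each, giving 6 groups and 12 arrays. TR cells came from RAG-/- recipients, which make no T or B cells of their own, after transfer of naive CD4 T cells from reporter mice as a model of colitis, and WT cells came from reporter mice outside the experiment. The CD4 T cells of both hosts thus come from reporter mice. The 3 subsets of a host and a replicate number are called a set here, and there are 4 sets. Nothing in the labels says how many mice stand behind an array or whether replicates came from separate mice, so the p-values cover the variation among these samples alone, part or all of which may be technical.

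Signal is given as background-corrected, quantile-normalised intensity on the log2 scale, where 1 unit is a doubling, and a probe was called detected where its detection p was under 0.05. Replicate 1 arrays detected 12024 to 13091 probes and replicate 2 arrays 6721 to 8195. The bead-to-bead standard error of a member's raw intensity was 2.2 to 11.6% of that intensity. The T cell genes Cd3e, Cd3d, Cd3g, Lck, Cd4 and Cd8a were detected on all 12 arrays, Cd2 on 11 and Cd8b1 on 5. In TR replicates 1 and 2 and WT replicates 1 and 2, Cd2 read 7.18, 8.55, 8.71 and 6.3 in THPOK-CD8a+ cells. In THPOK+CD8a- cells it read 9.53, 9.53, 9.06 and 9.4, all higher. The mean log2 signal of these 8 T cell genes differed between the same subsets by −0.16, 0.08, 0.23 and 0.04 within sets. No probe was named Zbtb7b, and Cd8a, whose protein was sorted on, differed by 0.43 ± 0.21 (log2, SE) between THPOK-CD8a+ and THPOK+CD8a- cells (limma, adjusted p = 0.543). The host of replicate 1 is not settled: the sets of the deposited log2 table equal those of the intensity table only if TR and WT of replicate 1 are exchanged. Differences between subsets are taken within sets and do not depend on this, and results on hosts are given under both namings.

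The promoter windows run from 250 bases before a transcript start to 50 after it. They are shown for the neighbours Il17a and Il17f, which were detected so differently, and for Ccr6, whose difference was the most negative. A window of Tmem176a is also shown, which partly overlaps windows of Tmem176b on the other strand. All are RefSeq sequence of build GRCm38.p6, 5′ to 3′ on the gene's strand. Capitals mark matches on either strand to AGGTCA or GGGTCA, core letters that nuclear receptors bind, to TTCNNNGAA, the STAT core, or to TGANTCA, the AP-1 core.
Il17a: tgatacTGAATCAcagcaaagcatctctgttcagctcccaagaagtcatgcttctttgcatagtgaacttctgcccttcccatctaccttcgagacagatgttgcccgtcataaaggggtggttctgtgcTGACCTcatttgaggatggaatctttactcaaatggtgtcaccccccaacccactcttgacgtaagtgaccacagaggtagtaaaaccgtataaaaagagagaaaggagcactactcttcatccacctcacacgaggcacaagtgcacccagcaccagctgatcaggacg
Il17f: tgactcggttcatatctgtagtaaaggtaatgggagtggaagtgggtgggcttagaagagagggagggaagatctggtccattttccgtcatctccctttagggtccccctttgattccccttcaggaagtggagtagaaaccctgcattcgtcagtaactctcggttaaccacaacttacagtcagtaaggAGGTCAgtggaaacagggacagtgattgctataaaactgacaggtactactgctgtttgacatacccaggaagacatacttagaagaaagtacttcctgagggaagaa
Ccr6: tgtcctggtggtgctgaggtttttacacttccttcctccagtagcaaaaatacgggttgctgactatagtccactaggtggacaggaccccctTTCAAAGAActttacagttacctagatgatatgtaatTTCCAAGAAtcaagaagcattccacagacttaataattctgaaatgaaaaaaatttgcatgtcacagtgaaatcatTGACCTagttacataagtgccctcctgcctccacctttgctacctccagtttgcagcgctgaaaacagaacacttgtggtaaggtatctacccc
Tmem176a: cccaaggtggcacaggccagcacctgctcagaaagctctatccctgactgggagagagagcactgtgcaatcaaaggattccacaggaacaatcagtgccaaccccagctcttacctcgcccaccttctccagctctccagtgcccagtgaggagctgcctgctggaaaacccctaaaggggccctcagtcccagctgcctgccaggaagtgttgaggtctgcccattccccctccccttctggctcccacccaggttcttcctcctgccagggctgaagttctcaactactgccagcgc

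The Il17a window lies at chr1:20730655-20730954 on the plus strand and that of Il17f at chr1:20784221-20784520 on the minus strand. RefSeq lists 0 genes between Il17a and Il17f. The Il17a window held AGGTCA once, on its opposite strand 120 to 115 bases before the start, and TGANTCA once, and the Il17f window held AGGTCA once, 58 to 53 bases before the start. The first of 2 Ccr6 windows, at chr17:8235793-8236092 on the plus strand, held AGGTCA once, on its opposite strand 44 to 39 bases before the start, and TTCNNNGAA at 2 places. The Il23r window (chr6:67491806-67492105, minus strand) held AGGTCA at 2 places. GGGTCA stood once in the second of 2 Il1r1 windows (chr1:40266336-40266635, plus strand) and once in the first of 3 Tmem176b windows (chr6:48840939-48841238, minus strand). The windows of Il22 and Il21 and both of Tmem176a held none of these letters. Of 32817 mouse promoter windows, 16.3% held AGGTCA, 13.7% GGGTCA, 8.29% TTCNNNGAA and 7.81% TGANTCA, so these matches are common and are given as a description. Tmem176a and Tmem176b lie back to back with 0 genes listed between them. The Tmem176a window printed here (chr6:48841233-48841532, plus strand) shares 208 of its bases with the third Tmem176b window on the other strand, and those starts are 109 bases apart.

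Detection of these genes was widest in THPOK+CD8a- cells. All 9 members were detected by at least 1 probe on 1 of the 4 THPOK+CD8a- arrays, TR replicate 1, and 7 on each of the other 3. In THPOK-CD8a+ cells 5, 3, 5 and 2 of the 9 were detected in TR replicates 1 and 2 and WT replicates 1 and 2, and in THPOK-CD8a- cells 7, 5, 5 and 4. Tested against THPOK+CD8a- cells within the 4 sets, Ccr6, Il17a, Il1r1, Tmem176b, Il22 and Tmem176a were lower in THPOK-CD8a+ cells, which is 6 of the 7 members tested, where 0.311% of all 10612 genes tested were called lower. Ccr6 and Il1r1 were lower in THPOK-CD8a- cells, which is 2 of 7, where 0.0283% of all genes were. The members were chosen with earlier results of these data known, so these counts describe the list and do not test it. Il21 did not pass the test in either comparison, and Il17f and Il23r were too rarely detected to be tested. No member differed between THPOK-CD8a+ and THPOK-CD8a- cells or between hosts at an adjusted p under 0.05.

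**Figure D1:**
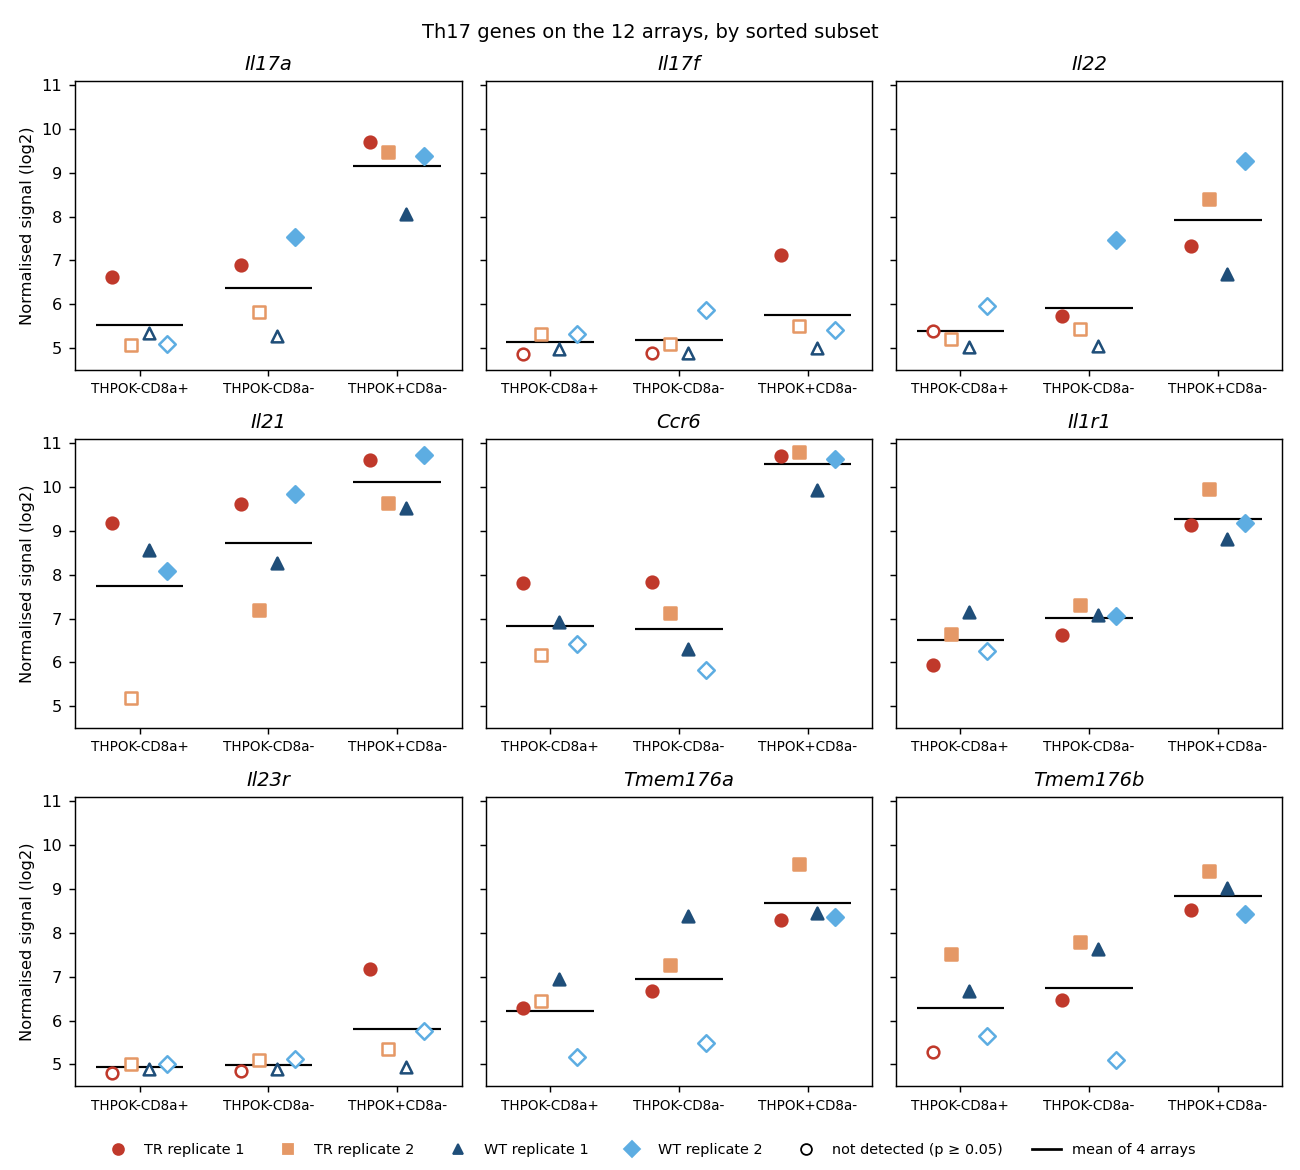
Normalised log2 signal (y axis) of the 9 genes in the 3 sorted subsets (x axis). Each point is 1 array, coloured and shaped by set, open where the probe was not detected, and the bar is the mean of 4 arrays. The 7 tested genes lie higher on every THPOK+CD8a- array than on any THPOK-CD8a+ array, while Il17f and Il23r have 1 filled point each, in TR replicate 1 of THPOK+CD8a- cells.

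IL-17A, the cytokine that gives Th17 cells their name, was highest in THPOK+CD8a- cells and was detected on 3 of the 8 other arrays. In TR replicates 1 and 2 and WT replicates 1 and 2, the Il17a signal (probe 20347) was 6.63, 5.06, 5.34 and 5.10 in THPOK-CD8a+ cells, 6.90, 5.82, 5.28 and 7.53 in THPOK-CD8a- cells, and 9.71, 9.47, 8.06 and 9.37 in THPOK+CD8a- cells. It was detected on 1 THPOK-CD8a+ array (TR replicate 1), on 2 THPOK-CD8a- arrays (TR replicate 1 and WT replicate 2) and on all 4 THPOK+CD8a- arrays, and the THPOK+CD8a- arrays overlapped with neither other subset. The difference was −3.62 ± 0.39 for THPOK-CD8a+ against THPOK+CD8a- cells (log2, SE, limma, adjusted p = 0.0108). Its size is set largely against background, since 3 of the 4 THPOK-CD8a+ arrays did not detect Il17a, and no fold is given. For THPOK-CD8a- against THPOK+CD8a- cells it was −2.77 ± 0.39 and missed the threshold (limma, adjusted p = 0.0577), with all 4 sets lower. WT replicate 2 of THPOK-CD8a- cells, at 7.53, lay close to the lowest THPOK+CD8a- array, at 8.06.

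IL-22, which acts on epithelial cells to raise antimicrobial defence, had the same order. In the same order of sets, the Il22 signal (probe 6660088) was 5.38, 5.20, 5.02 and 5.96 in THPOK-CD8a+ cells, 5.74, 5.43, 5.05 and 7.47 in THPOK-CD8a- cells, and 7.33, 8.40, 6.69 and 9.26 in THPOK+CD8a- cells. It was detected on 0 THPOK-CD8a+ arrays, on the same 2 THPOK-CD8a- arrays as Il17a, and on all 4 THPOK+CD8a- arrays. WT replicate 2 of THPOK-CD8a- cells reached the range of the THPOK+CD8a- arrays. The fitted difference of THPOK-CD8a+ against THPOK+CD8a- cells was −2.53 ± 0.32 (limma, adjusted p = 0.0123). Because Il22 was not above background on any THPOK-CD8a+ array, the level is given as at least 3.43-fold higher in THPOK+CD8a- cells, set against the lowest signal of a detected probe or the probe's own signal on each array, whichever was higher. This bound holds for the background correction used here: without that correction the fitted difference was −1.42, and −1.25 in the deposited log2 table, or 2.67-fold and 2.37-fold. For THPOK-CD8a- against THPOK+CD8a- cells the difference was −2.0 ± 0.32 (limma, adjusted p = 0.0674).

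Iltifb, which RefSeq lists as a second IL-22 gene, is a near copy whose RNA may share the Il22 probe, so the Il22 signal may hold both. The better of its 2 probes was detected on 2 arrays, both of THPOK+CD8a- cells in replicate 1, at 5.77 in TR and 5.80 in WT.

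IL-21, a cytokine of Th17 and follicular helper cells that helps B cells and CD8 T cells, stayed detectable in every subset. In the same order of sets, the Il21 signal (probe 1690647) was 9.17, 5.19, 8.57 and 8.08 in THPOK-CD8a+ cells, 9.61, 7.20, 8.26 and 9.85 in THPOK-CD8a- cells, and 10.61, 9.63, 9.52 and 10.72 in THPOK+CD8a- cells. TR replicate 2 of THPOK-CD8a+ cells was the 1 array without detection and lay far below the other 3 of its subset. The difference was −2.37 ± 0.49 for THPOK-CD8a+ cells (limma, adjusted p = 0.0808) and −1.39 ± 0.49 for THPOK-CD8a- cells (limma, adjusted p = 0.471), both against THPOK+CD8a- cells. Its within-set differences for THPOK-CD8a+ cells ran between −4.44 in TR replicate 2 and −0.95 in WT replicate 1, the widest spread of the 7 tested members in that comparison.

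IL-17F, the close relative of IL-17A, was detected on 1 array of 12, TR replicate 1 of THPOK+CD8a- cells, at 7.13, and the other 11 arrays lay between 4.86 and 5.86. Although Il17f and Il17a are neighbours in the genome, Il17f (probe 2000414) was not detected on the other 3 THPOK+CD8a- arrays, where Il17a was. It failed the filter of detection on at least 2 arrays. Without that filter the difference of THPOK-CD8a+ against THPOK+CD8a- cells was −0.64 ± 0.41 (limma, adjusted p = 0.807).

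CCR6, the receptor for CCL20, showed the most negative difference of all 10612 genes tested in both comparisons with THPOK+CD8a- cells. In the same order of sets, the Ccr6 signal (probe 1010132) was 7.80, 6.17, 6.93 and 6.43 in THPOK-CD8a+ cells, 7.83, 7.12, 6.31 and 5.82 in THPOK-CD8a- cells, and 10.70, 10.79, 9.93 and 10.64 in THPOK+CD8a- cells. The lowest THPOK+CD8a- array stood 2.13 above the highest THPOK-CD8a+ array and 2.09 above the highest THPOK-CD8a- array, and this probe was detected on 2 THPOK-CD8a+ and 3 THPOK-CD8a- arrays. The Ccr6 difference was −3.68 ± 0.35 in THPOK-CD8a+ cells (limma, adjusted p = 0.0108) and −3.75 ± 0.35 in THPOK-CD8a- cells (limma, adjusted p = 0.0187). As folds, Ccr6 was 12.8 and 13.4 times higher in THPOK+CD8a- than in THPOK-CD8a+ and THPOK-CD8a- cells, 6.16 and 6.27 times with no background correction, and 5.56 and 5.83 times in the deposited log2 table.

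A second Ccr6 probe gave a smaller difference in the same direction, −1.56 ± 0.31 for THPOK-CD8a+ against THPOK+CD8a- cells (limma on single probes, adjusted p = 0.0728) and −1.32 ± 0.31 for THPOK-CD8a- cells (limma on single probes, adjusted p = 0.201), neither past the threshold. Its WT replicate 1 array of THPOK+CD8a- cells read 5.81, close to the 5.48 of THPOK-CD8a+ cells in that set, so the 2 probes disagree in size.

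IL1R1, the signalling receptor for IL-1, was the other receptor lower in both ThPOK-negative subsets. In the same order of sets, the Il1r1 signal (probe 7650731) was 5.94, 6.65, 7.16 and 6.27 in THPOK-CD8a+ cells, 6.62, 7.31, 7.08 and 7.06 in THPOK-CD8a- cells, and 9.13, 9.96, 8.81 and 9.17 in THPOK+CD8a- cells. It was detected on 3 THPOK-CD8a+ arrays and on all 4 THPOK-CD8a- arrays, all below every THPOK+CD8a- array. The difference was −2.77 ± 0.26 for THPOK-CD8a+ cells (limma, adjusted p = 0.0108) and −2.25 ± 0.26 for THPOK-CD8a- cells (limma, adjusted p = 0.0263). A second probe was detected on 3 THPOK+CD8a- arrays and on no other, so it gives only a bound: its signal was at least 1.90-fold higher in THPOK+CD8a- than in THPOK-CD8a+ cells (limma on single probes, adjusted p = 0.0331) and at least 1.89-fold higher than in THPOK-CD8a- cells (limma on single probes, adjusted p = 0.0924). It passed the detection filter through the subset where it is high and is no separate support for the first probe.

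IL23R, which with Il12rb1 forms the IL-23 receptor, behaved like Il17f: probe 130164 was detected on TR replicate 1 of THPOK+CD8a- cells at 7.18 and on no other array. The other 11 arrays read 4.81 to 5.76. Without the detection filter the difference of THPOK-CD8a+ against THPOK+CD8a- cells was −0.87 ± 0.38 (limma, adjusted p = 0.651).

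Tmem176a and Tmem176b encode paired membrane proteins found in Th17 cells and in dendritic cells of mice. In the same order of sets, the Tmem176b signal (probe 3450180) was 5.28, 7.51, 6.68 and 5.65 in THPOK-CD8a+ cells, 6.46, 7.78, 7.62 and 5.11 in THPOK-CD8a- cells, and 8.53, 9.40, 9.03 and 8.43 in THPOK+CD8a- cells. The THPOK+CD8a- arrays did not overlap with those of either other subset. The difference was −2.57 ± 0.33 for THPOK-CD8a+ cells (limma, adjusted p = 0.0123) and −2.10 ± 0.33 for THPOK-CD8a- cells, which missed the threshold (limma, adjusted p = 0.0622).

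The Tmem176a signal (probe 3370021), in the same order of sets, was 6.29, 6.45, 6.95 and 5.17 in THPOK-CD8a+ cells, 6.67, 7.26, 8.38 and 5.49 in THPOK-CD8a- cells, and 8.30, 9.57, 8.46 and 8.37 in THPOK+CD8a- cells. WT replicate 1 of THPOK-CD8a- cells lay just above the lowest 2 THPOK+CD8a- arrays, and the THPOK-CD8a+ arrays lay below all of them. The difference was −2.46 ± 0.38 for THPOK-CD8a+ cells (limma, adjusted p = 0.0315; adjusted p = 0.0645 with no detection filter) and −1.72 ± 0.38 for THPOK-CD8a- cells (limma, adjusted p = 0.167). A second Tmem176a probe was detected on the 2 THPOK-CD8a+ arrays of replicate 2, where the first was not, so Tmem176a was detected by 1 probe or the other on all 4 THPOK-CD8a+ arrays. That probe gave a smaller difference, −0.81 ± 0.17 in THPOK-CD8a+ cells (limma on single probes, adjusted p = 0.0906) and −0.80 ± 0.17 in THPOK-CD8a- cells (limma on single probes, adjusted p = 0.166). The Tmem176a call in THPOK-CD8a+ cells was the least steady of the 6 and held in 8 of the 23 alternatives.

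**Figure D2:**
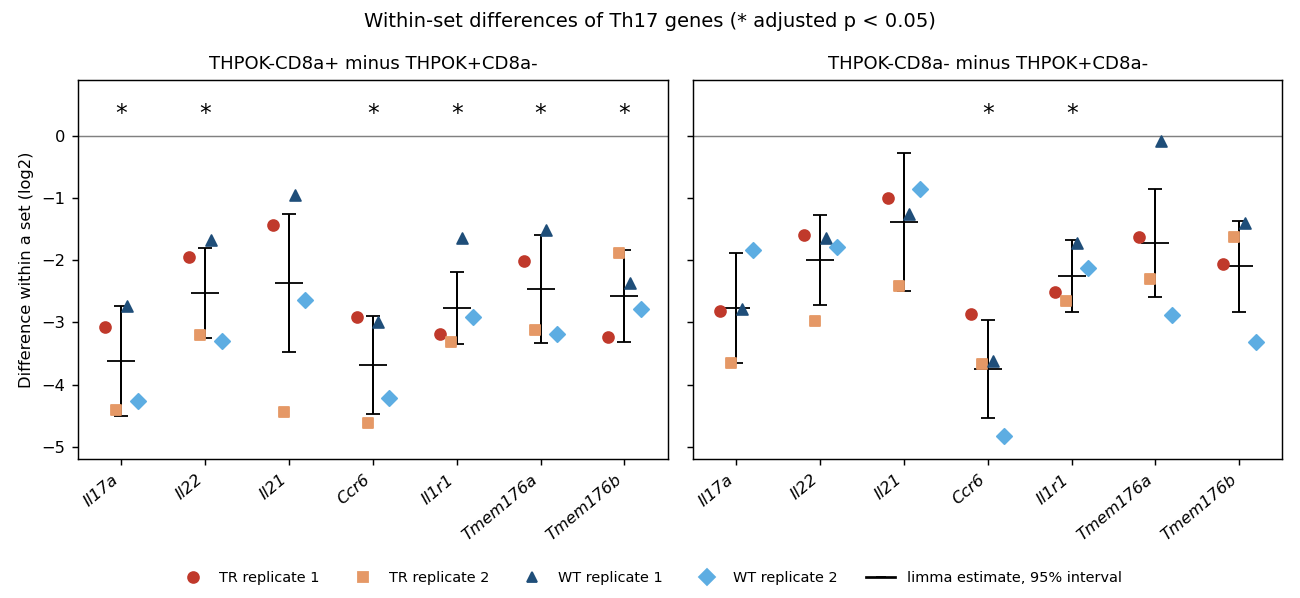
Within-set log2 difference (y axis) of the 7 tested genes (x axis), THPOK-CD8a+ minus THPOK+CD8a- cells on the left and THPOK-CD8a- minus THPOK+CD8a- cells on the right. Points are the 4 sets, black bars the limma estimate with its 95% interval, and asterisks mark an adjusted p under 0.05. Every point lies below 0, with Ccr6 at −3.68 and −3.75.

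Counted over the list, 0 of the 7 tested members passed the test as higher in THPOK-CD8a+ cells, where 0.254% of all genes did. Of all genes, 1.48% had THPOK-CD8a+ arrays that all lay below the THPOK+CD8a- arrays, and all 7 tested members did. All 7 were also lower in 4 of 4 sets, where 8.63% of all genes were. The median difference of the 7 was −2.57, against 0.003 over all genes tested. In THPOK-CD8a- cells 4 of the 7 (Il17a, Ccr6, Il1r1 and Tmem176b) had groups that did not overlap, where 1.3% of all genes were lower in that way. All 7 were lower in 4 of 4 sets, where 8.37% of all genes were. Their median difference there was −2.10, against 0.005 over all genes. Because the members were chosen with earlier results of these data known, these counts and medians are descriptions and no test of the list. Each tested member was detected on all 4 THPOK+CD8a- arrays, the subset where it is high, and on at least 2 THPOK-CD8a- arrays. Either would meet the detection filter. Both comparisons share the 4 THPOK+CD8a- arrays. In bulk samples, fewer cells of a type and less RNA per cell cannot be told apart.

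The sizes depend on the background correction. Without it the differences of THPOK-CD8a+ against THPOK+CD8a- cells were −2.19 for Il17a, −2.62 for Ccr6, −1.74 for Il1r1, −1.70 for Il21, −1.52 for Tmem176b and −1.45 for Tmem176a. In the deposited log2 table they were −2.08 for Il17a, −2.47 for Ccr6, −1.68 for Il1r1, −1.51 for Il21, −1.54 for Tmem176b and −1.36 for Tmem176a. For THPOK-CD8a- against THPOK+CD8a- cells Ccr6 stood at −2.65 and −2.54 and Il1r1 at −1.49 and −1.47, without the correction and in the deposited table. All these lie nearer 0 than the values above, and the 6 calls in THPOK-CD8a+ cells and 2 in THPOK-CD8a- cells held under both.

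The calls rest on the pooled spread of 12 arrays. With only the 8 arrays compared, 0 members passed in either comparison, and with no block for the set, Ccr6 and Il1r1 passed in THPOK-CD8a+ cells and Ccr6 in THPOK-CD8a- cells. With the replicate number alone as block, Il17a, Ccr6 and Il1r1 passed in THPOK-CD8a+ cells and Ccr6 and Il1r1 in THPOK-CD8a- cells. When each of the 12 arrays was left out in turn, Ccr6 kept its call in THPOK-CD8a+ cells in all 12 fits, Il17a and Il1r1 in 11, Tmem176b in 9, Il22 in 8 and Tmem176a in 3. Without TR replicate 1 of THPOK+CD8a- cells, Ccr6 was the 1 member that passed in each comparison. Without TR replicate 1 of THPOK-CD8a+ cells or WT replicate 2 of THPOK+CD8a- cells, the members that passed in THPOK-CD8a+ cells were Il17a, Ccr6 and Il1r1, and without TR replicate 2 of THPOK-CD8a+ cells they were these 3 and Tmem176b. Tmem176a also missed the threshold, as the 1 member lost of the 6, without WT replicate 1 or 2 of THPOK-CD8a+ cells, TR replicate 1 or 2 of THPOK-CD8a- cells, or TR replicate 2 of THPOK+CD8a- cells, and over all 9 fits that lost it its limma adjusted p ran over 0.0595 to 0.133. In THPOK-CD8a- cells 0 members passed without any 1 of 6 arrays, which were TR replicate 1 of THPOK-CD8a+ cells, WT replicate 1 and TR replicates 1 and 2 of THPOK-CD8a- cells, and WT replicate 2 and TR replicate 2 of THPOK+CD8a- cells. Leaving out TR replicate 2 of THPOK-CD8a+ cells left Ccr6 alone there, leaving out WT replicate 2 of THPOK-CD8a- cells gave Il17a and Ccr6, and leaving out WT replicate 2 of THPOK-CD8a+ cells gave Il17a and Il22 beside Ccr6 and Il1r1.

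Within each replicate number alone all 7 members were lower in THPOK-CD8a+ than in THPOK+CD8a- cells, by sizes that differed between the numbers. For Il17a the difference was −2.90 in replicate 1 and −4.34 in replicate 2. For Ccr6 it was −2.95 and −4.41 in replicates 1 and 2, and for Il22 −1.81 and −3.25. Il21 had −1.20 and −3.54, Il1r1 −2.42 and −3.11, and Tmem176a −1.76 and −3.16. Tmem176b alone was further down in replicate 1, at −2.80, than in replicate 2, at −2.34. None of these passed the test, with 2 sets each.

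THPOK-CD8a+ and THPOK-CD8a- cells were then compared directly. No member passed the test, and of all 10612 genes 0 did (0.0%), with 541 (5.1%) at an unadjusted p under 0.05, among them 0 members. The Ccr6 difference was 0.06 (95% interval −0.72 to 0.85), with 2 sets up and 2 down. The other 6 tested members had estimates below 0, among them Il17a at −0.85 (95% interval −1.73 to 0.03), Il21 at −0.98 (−2.09 to 0.13), Tmem176a at −0.73 (−1.60 to 0.13) and Il1r1 at −0.51 (−1.09 to 0.06). Il22 stood at −0.53 (−1.25 to 0.19) and Tmem176b at −0.46 (−1.20 to 0.27). Il22 and Tmem176a were lower in THPOK-CD8a+ cells in 4 of 4 sets, where 7.32% of all genes were. These intervals leave room for a difference of more than 1 log2 unit in each of the 6. For each of these 6 the order of mean levels was THPOK-CD8a+, THPOK-CD8a- and THPOK+CD8a- from low to high, with the lower 2 not separated by this test.

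The THPOK-CD8a- sample of WT replicate 2 split the list on the probes tested. Its Il17a, Il22 and Il21 signals, 7.53, 7.47 and 9.85, were the highest of that subset. Its Ccr6, Tmem176a and Tmem176b signals, 5.82, 5.49 and 5.11, were the lowest and were not detected. Il1r1 was on neither side: it was detected at 7.06, within the 6.62 to 7.31 of the subset. The second probes did not share this split. Ccr6 read 5.86 there, the highest of the subset, and Tmem176a 6.64, not the lowest, both without detection.

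With hosts as the intensity table names them, TR against WT differences averaged over the 3 subsets ran between −0.60 (Il21) and 0.73 (Ccr6). Under that naming 0 of 7 members and 0 of all genes (0.0%) passed the test. At an unadjusted limma p under 0.05 stood 483 genes (4.55%), among them 1 member. Ccr6 averaged 8.40 ± 1.91 on TR arrays and 7.68 ± 2.06 on WT arrays (SD over the 6 arrays of a host, which span the subsets). The difference was 0.73 ± 0.31 (limma across all genes, unadjusted p 0.0457, adjusted p 1.0). That fit takes the 3 arrays of a set as separate samples of a host and leaves out the replicate number, by which arrays deviated together. With the number as a block Ccr6 stood at 0.73 ± 0.28 (limma, adjusted p = 0.472), and with the mean of each set as 1 sample, 2 against 2, at 0.73 ± 0.39 (limma, adjusted p = 1.0). No member passed in either of these fits. With the hosts of replicate 1 exchanged, Ccr6 turned to −0.33 ± 0.41 and Il17a, at 0.49 ± 0.46 as named, turned to −1.04 ± 0.34. Under the exchanged naming Tmem176b stood at 1.43 ± 0.27 (limma, adjusted p = 0.277), against 0.41 ± 0.55 as named, and Tmem176a at 1.13 ± 0.35 (limma, adjusted p = 0.731), against 0.29 ± 0.52. Il21 stood at −1.61 ± 0.53 (limma, adjusted p = 0.779), against −0.60 ± 0.71 as named. Il22 stood at −0.89 ± 0.46, against −0.33 ± 0.54, and Il1r1 at 0.46 ± 0.24, against 0.01 ± 0.27. No member passed under the exchanged naming either. The direction for Ccr6 and Il17a thus depends on which table names the hosts.

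The difference between THPOK-CD8a+ and THPOK+CD8a- cells was also compared between hosts. It was −3.25 in TR and −2.28 in WT for Il1r1, an interaction of −0.97 ± 0.45 (limma, adjusted p = 0.998). For Ccr6 it was −3.76 in TR and −3.60 in WT, and for Il17a −3.74 and −3.50. No member and 0 of all genes (0.0%) passed this test, with 414 genes (3.9%) at an unadjusted p under 0.05, among them 0 members. With the hosts of replicate 1 exchanged the Il1r1 interaction was 0.57 ± 0.54, that of Ccr6 −0.24 ± 0.77 and that of Il17a 0.10 ± 0.78.

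**Figure D3:**
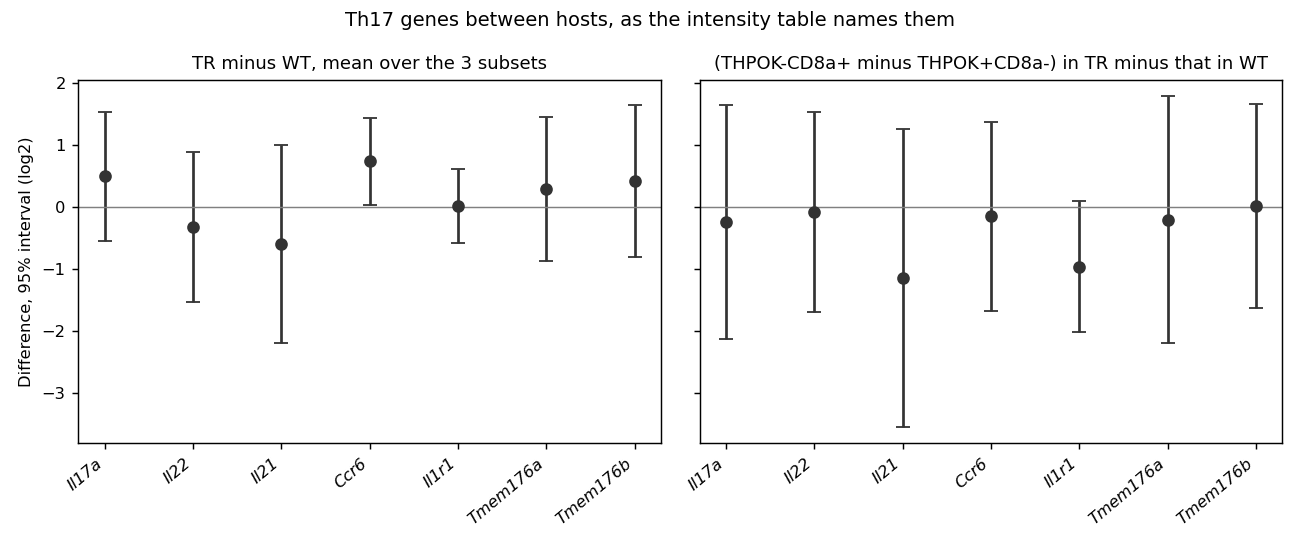
Estimates (points) and 95% intervals (bars) on the log2 scale (y axis) for the 7 tested genes (x axis), with hosts as the intensity table names them. Left, TR minus WT averaged over subsets, where Ccr6 at 0.73 is the 1 gene whose interval lies above 0. Right, the host difference of the THPOK-CD8a+ minus THPOK+CD8a- contrast, where all 7 intervals include 0.

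Of 51 other genes of the Th17 pathway, 49 had a probe and 40 were tested. This list too was chosen with earlier results of these data known. In THPOK-CD8a+ against THPOK+CD8a- cells 0 passed as higher and 2 as lower, against 0.254% and 0.311% of all genes. Both were transcription factors, of which 8 were tested. Hif1a, the oxygen-sensing factor that promotes glycolysis in Th17 cells, read 7.65, 7.39, 7.26 and 8.09 in THPOK-CD8a+ cells, 7.98, 7.99, 8.10 and 8.0 in THPOK-CD8a- cells, and 8.89, 8.59, 8.71 and 9.81 in THPOK+CD8a- cells, in the same order of sets. The THPOK+CD8a- arrays lay above all the others.

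Hif1a differed by −1.40 ± 0.21 (limma, adjusted p = 0.0279) in THPOK-CD8a+ cells. Nfkbiz, which encodes IκBζ, a nuclear partner of NF-κB that helps switch on Il17a, differed by −0.98 ± 0.16 (limma, adjusted p = 0.0399). Il1r2, the decoy receptor for IL-1, had the next smallest p (limma, adjusted p = 0.0534). It was detected on 3 arrays, all of THPOK+CD8a- cells, so it too passed the detection filter through the subset where it is high, and its signal there was at least 1.29-fold higher than in THPOK-CD8a+ cells. Il21r, the receptor for IL-21 and detected on all 12 arrays, followed at 0.82 ± 0.16 (limma, adjusted p = 0.0624).

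In THPOK-CD8a- against THPOK+CD8a- cells 0 of the 40 passed. The 4 with the smallest p were Il10, an anti-inflammatory cytokine (−1.58 ± 0.31), Il1r2 (at least 1.28-fold higher in THPOK+CD8a- cells), Hif1a (−0.98 ± 0.21) and Maf, a factor that promotes Il10 (−1.73 ± 0.39), with limma adjusted p of 0.119, 0.146, 0.162 and 0.167. The median of the 40 was −0.26 in THPOK-CD8a+ and −0.08 in THPOK-CD8a- cells, against 0.003 and 0.005 over all genes. By role, the median in THPOK-CD8a+ cells was −0.52 for transcription factors, −0.43 for receptors of the cytokines and tissue targets, −0.20 for other Th17 products, −0.12 for genes that oppose the program and −0.06 for receptor partners and signalling. Stat3, which carries IL-6, IL-21 and IL-23 signals, was among the 38 that did not pass. Ccl20, the ligand of Ccr6, Csf2, the cytokine GM-CSF, and Il12rb1, the partner of Il23r, were detected on 0 arrays.

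**Figure D4:**
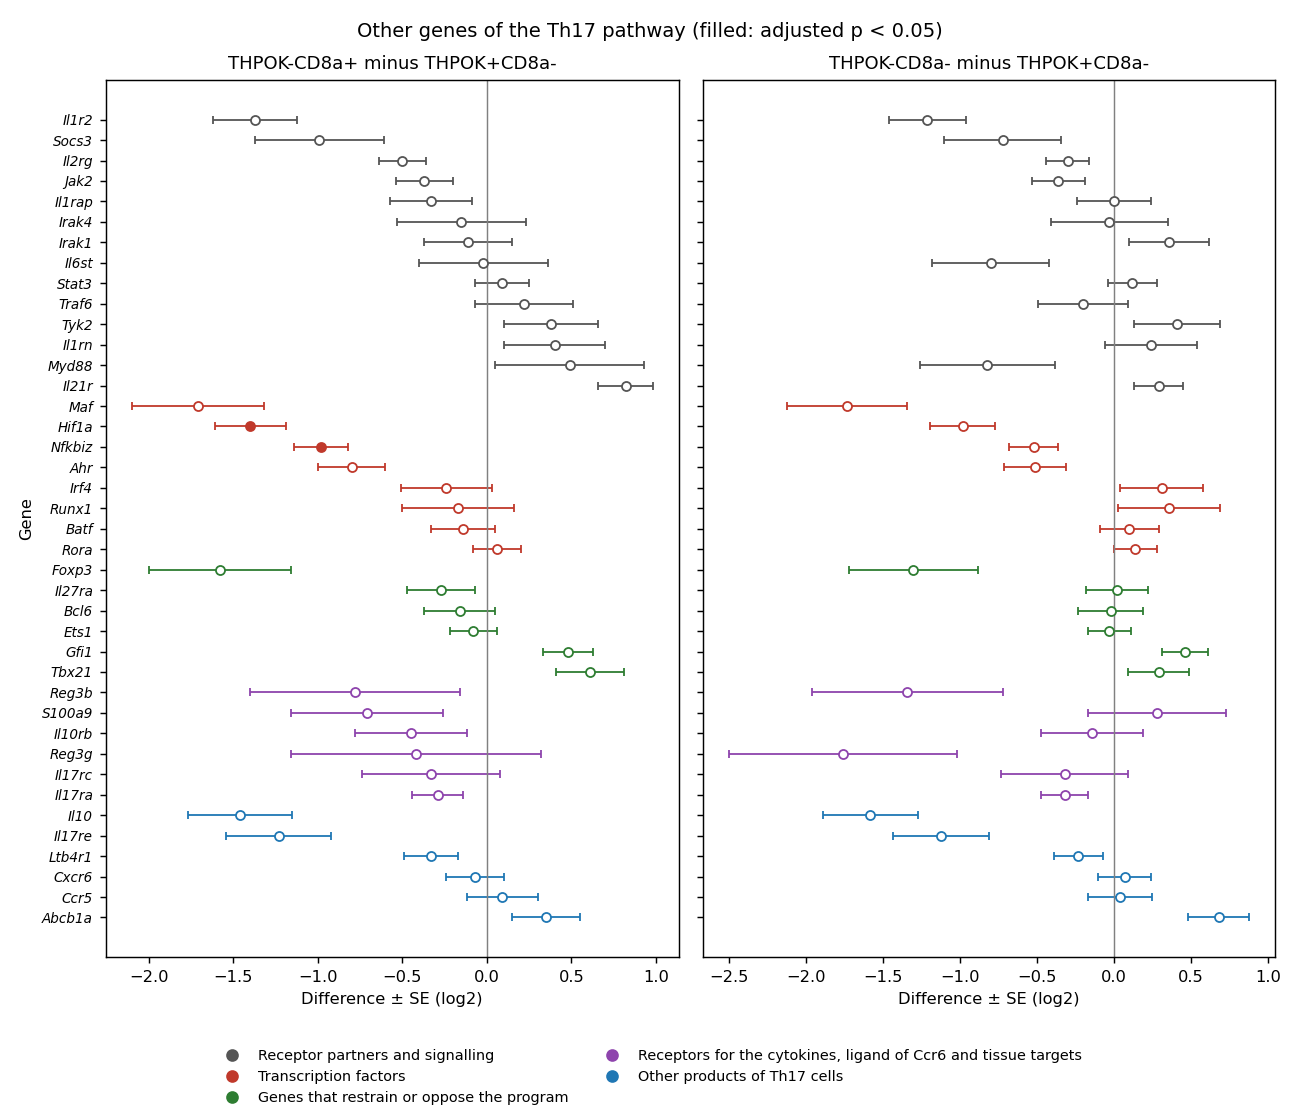
Log2 difference with its standard error (x axis) of the 40 tested pathway genes (y axis), coloured by role, for THPOK-CD8a+ (left) and THPOK-CD8a- cells (right) against THPOK+CD8a- cells. Filled points passed the test: Hif1a at −1.40 and Nfkbiz at −0.98 on the left, and none on the right.

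Genes with a like pattern were ranked by Pearson correlation over the 12 arrays after each set's mean was taken off. The points share arrays, sets and the split between subsets, so these are descriptions. The nearest to Il17a were Odc1, an enzyme of polyamine synthesis (r = 0.990), Il22 (0.989), the costimulator Icos (0.986), LOC100048841 (0.982) and the CD40 ligand gene Cd40lg (0.979). The nearest to Ccr6 were the OX40 gene Tnfrsf4 (0.983), Iltifb (0.975), the glycolysis regulator Pfkfb3 (0.950), Kcnrg (0.948) and LOC100046855 (0.947). The nearest to Tmem176b were Usp33 (0.977), Lao1 (0.970), Hif1a (0.967), Ctla2a (0.965) and the T cell factor gene Tcf7 (0.965). Among the 7 tested members themselves the lowest pairwise value was 0.688 and the highest, between Il17a and Il22, was 0.989.

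Markers of other cells were summed as well. The naive T cell sums of THPOK+CD8a- arrays lay above those of both other subsets, while for each other list the ranges of the sums overlapped. All 5 naive T cell genes looked for (Ccr7, Lef1, Tcf7, S1pr1 and Klf2) had a probe and 4 were detected on at least 2 arrays. The normalised signal of those 4, summed on the linear scale, ran over 171 to 298 in THPOK-CD8a+, 204 to 340 in THPOK-CD8a- and 405 to 1313 in THPOK+CD8a- cells. Of 10 genes of type 3 innate lymphoid cells, which also make IL-22, 9 had a probe and 5 were detected on at least 2 arrays, with sums of 3517 to 6045, 3823 to 6969 and 5639 to 7618 in the same order. Within sets, the mean log2 signal of those 5 genes was nevertheless lower in both other subsets than in THPOK+CD8a- cells. In TR replicates 1 and 2 and WT replicates 1 and 2, it differed by −0.97, −0.68, −0.26 and −1.11 in THPOK-CD8a+ cells. In THPOK-CD8a- cells it differed by −0.80, −0.20, −0.32 and −0.73. Ncr1, which marks a subset of type 3 innate lymphoid cells and also NK cells, was detected on 0 arrays. Il7r, Tnfsf11 and Id2, which T cells express too, were detected on all 12. Of 6 genes of γδ T17 cells 3 had a probe and 1, Cd163l1, was detected on at least 2 arrays, with signals of 47 to 70, 35 to 64 and 46 to 133, and Sox13 was detected on 0 arrays. Paneth and goblet cell genes, 8 of 10 with a probe, summed to 307 to 10304, 313 to 697 and 397 to 6815. Within sets, their mean log2 signal was lower in THPOK-CD8a- than in THPOK+CD8a- cells each time. It differed by −1.2, −0.12, −3.54 and −1.85, in the same order of sets. For THPOK-CD8a+ cells it differed by −1.2, −0.28, −2.71 and 1.68. Epithelial genes, 9 of 10 with a probe, summed to 2689 to 7373, 2707 to 3718 and 1525 to 7513. That sum leans on Cdh1, the brightest of them on every array, at 9.95 to 11.82 on the log2 scale. Other epithelial genes varied more between arrays, such as Krt8 (5.42 to 9.60) and Vil1 (4.95 to 9.13). B and plasma cell genes, 6 of 8 with a probe, summed to 121 to 612, 125 to 172 and 117 to 434, and the 8 myeloid and dendritic cell genes to 212 to 882, 197 to 366 and 214 to 430. The myeloid and dendritic mean differed within sets by −0.11, −0.13, −0.03 and −0.12 in THPOK-CD8a- cells. In THPOK-CD8a+ cells that mean differed by −0.05, 0.04, −0.36 and 1.29. The part of these other cell types in the Th17 differences was not tested.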

How the data were processed

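RNA of 12 sorted samples was measured on Illumina MouseRef-8 arrays. Per the file headers, the deposited intensity table is a GenomeStudio export with no normalization. It gives for each array the mean intensity of 25697 probes, the bead spread and the bead number. Per the file headers, the deposited detection fraction, a score from 0 to 1, comes from the same export. The authors also deposited a log2 table. Its values, set against the intensities, are centred on the median of each set's 3 arrays with every column median at 0, and TR and WT of replicate 1 carry exchanged names. How it was normalised is not given in the sources used here. Its rows were paired with probes by values (tolerance 1e-04).

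Intensities were corrected, quantile-normalised and log2-transformed with neqc (limma 3.58.1, R 4.3.3, offset 16). Detection p was read as 1 minus the score, and 14635 probes with p under 0.05 on at least 2 arrays were kept. The probe of highest mean represented each of 10612 genes. Old symbols were updated through RefSeq. The comparisons of subsets were fitted with limma and eBayes on all 12 arrays with the 4 sets as blocks (6 residual degrees of freedom), the host comparison on 6 group means, and the interaction with set blocks. P-values were adjusted by Benjamini-Hochberg over all genes. The script was tested on simulated data. Same-numbered samples of different groups deviated together in all 15 pairs (correlations 0.356 to 0.657), so numbers were taken as pairing from the data, not the labels. These pairs also run across hosts, so they bear on the replicate number. They do not show pairing within the 4 sets used as blocks. The number of arrays limits the precision.

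The members and gene lists were chosen with earlier results of these data known. All members were named. A gene of the pathway list and a gene of the marker lists are not reported here. Of the pathway list, genes past the threshold and the 4 with the smallest p in each comparison with THPOK+CD8a- cells were named, and Stat3, Ccl20, Csf2 and Il12rb1 were added after their values were seen. Alternatives were the normalization, the detection filter, the deposited log2 table, single probes, a variance trend, the blocks, each replicate number, exchanged hosts and leaving out each array.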

Additional observations from a re-analysis of the deposited data

Results flagged for a closer look

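Of 48 groups of 4 values examined, 4 held 1 value far from the other 3 by Dixon's criterion, which chance meets in about 1 of 20 groups. The Il22 difference of THPOK-CD8a- against THPOK+CD8a- cells in TR replicate 2 was −2.97, while the other 3 sets lay between −1.79 and −1.59. Ccr6 in THPOK+CD8a- cells read 9.93 in WT replicate 1, below the 10.64 to 10.79 of the other 3. The Il1r1 difference of THPOK-CD8a+ against THPOK-CD8a- cells was 0.08 in WT replicate 1, with −0.79 to −0.66 elsewhere. Tmem176a in THPOK+CD8a- cells read 9.57 in TR replicate 2, above the 8.30 to 8.46 of the other 3.

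On the Ccr6 probe tested, the difference of THPOK-CD8a+ against THPOK-CD8a- cells was opposite between hosts. It was −0.04 and −0.95 in the TR sets and 0.63 and 0.61 in the WT sets, so TR minus WT was −1.11. This difference between hosts was not tested, and with the hosts of replicate 1 exchanged each host held 1 set above 0 and 1 below. The second Ccr6 probe did not repeat the pattern, with 0.13 and −0.17 in the TR sets and −0.15 and −0.75 in the WT sets. The tested probe was not detected in TR replicate 2 of THPOK-CD8a+ cells. Nor was it detected in WT replicate 2 of either subset.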

How the results depend on the processing

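All differences of the 7 tested members against THPOK+CD8a- cells kept their sign under the 23 alternatives run for each, which include leaving out each of the 12 arrays. The calls were less steady. For THPOK-CD8a+ against THPOK+CD8a- cells, 60 genes and 6 members passed. Genes passing numbered 135 with quantile normalization alone, 127 in the deposited log2 table, 149 with a variance trend, 0 with only the arrays compared, 4 with no replicate block and 29 with the replicate number alone as block; members numbered 0, 2 and 3 in the last 3. Within replicate numbers 1 and 2, 3 and 0 genes and 0 and 0 members passed. Leaving out 1 array gave 2 to 78 genes and 1 to 6 members. For THPOK-CD8a- against THPOK+CD8a- cells, 6 genes and 2 members passed, with 40 and 5 by quantile normalization alone, 56 and 6 in the deposited table, 57 and 5 with a variance trend, 16 genes with detection on 6 arrays, 0 and 0 with only the arrays compared, 1 and 1 with no replicate block, 3 and 0 genes and 0 and 0 members within replicates 1 and 2, and 0 to 14 genes and 0 to 4 members without 1 array. Il21 in THPOK-CD8a+ cells passed with quantile normalization alone (adjusted p = 0.0182), in the deposited table (0.00278) and with a variance trend (0.0195). For TR against WT, 1 gene passed with hosts exchanged and 0 to 13 without 1 array (13 without WT replicate 1 of THPOK-CD8a+ cells), against 0. Signs turned only for differences that no setting called. For THPOK-CD8a+ against THPOK-CD8a- cells in replicate 2 these were Ccr6 at −0.17 and Tmem176b at 0.13. For TR against WT with hosts exchanged they were Il17a at −1.04 and Ccr6 at −0.33. For the interaction they were, in the deposited table, Il17a 0.27, Il22 0.16, Il21 0.02, Il1r1 0.27 and Tmem176a 0.04. With hosts exchanged they were Il17a 0.10, Il22 0.19, Il1r1 0.57 and Tmem176a 0.28, and by quantile normalization alone Il22 0.10 and Tmem176b −0.07. Leaving out 1 array, Ccr6 ranged over −0.21 to 0.39 for THPOK-CD8a+ against THPOK-CD8a- cells. For TR against WT, Il22 ranged over −0.76 to 0.10, Il21 −1.26 to 0.06, Il1r1 −0.14 to 0.16, Tmem176a −0.19 to 0.77 and Tmem176b −0.01 to 0.83. For the interaction, Il17a ranged over −1.25 to 0.76, Il22 −0.86 to 0.69, Ccr6 −0.81 to 0.49, Tmem176a −1.33 to 0.91 and Tmem176b −0.58 to 0.59. Some of these fits used fewer arrays, and the cause of these changes was not tested. Signals near background, as for Il17f and Il23r, limit what can be seen.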
